A study of Mus musculus with 16 samples.

Results

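Brown adipose tissue (BAT) secretes proteins that act on the tissue itself or on distant organs, and 10 genes for such factors were followed here out of 51060 genes with listed transcripts. They were chosen by name as secreted factors and adipokines of brown fat, with earlier results of these data known. All 10 passed the filter on low counts, which left 15632 genes for testing. Their products are GDF15 and FGF21, hormones that cells under stress release; ANGPTL6, ANGPTL4, BMP8B, NRG4 and VEGFA, which act on metabolism, lipoprotein lipase, thermogenesis, ErbB receptors and blood vessels; and adiponectin (Adipoq), leptin (Lep) and complement factor D, also called adipsin (Cfd), which are classical products of adipocytes.

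Bulk RNA sequencing covered the BAT of 16 mice, all 7 weeks old: 4 wild-type (WT) females, 4 WT males, 4 OPA1 BKO females and 4 OPA1 BKO males. All were C57Bl/6J mice with homozygous floxed Opa1 alleles, kept on chow at room temperature. The OPA1 BKO mice also carried a Cre transgene under the Ucp1 promoter, which acts in thermogenic adipocytes and leaves the gene intact in the other cells of the tissue. The WT controls were littermates without Cre. OPA1 is a GTPase that fuses the inner mitochondrial membrane and shapes its cristae. The mice are named below by sex, genotype and library number.

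The hormones GDF15 and FGF21 are made at low levels in most resting tissues. Their transcription rises when the translation factor eIF2 is phosphorylated and ATF4 is made, as happens when mitochondria or the endoplasmic reticulum are disturbed. GDF15 signals through the receptor GFRAL with RET in the hindbrain, and FGF21 through FGF receptors with the co-receptor beta-Klotho (Klb) in adipocytes and the brain. Adiponectin and adipsin instead belong to the programme of the differentiated adipocyte.

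The windows around the start sites of Gdf15 and Fgf21 are shown because both genes rose in OPA1 BKO mice and because Gdf15 has 2 annotated starts that were used unequally. Each window runs from 250 bases before the start to 50 bases after it, on the minus strand of GRCm38.p6, as given by RefSeq. Matches to the searched motifs, on either strand, are in capitals.
Gdf15, upstream start (chr8:70632407-70632706): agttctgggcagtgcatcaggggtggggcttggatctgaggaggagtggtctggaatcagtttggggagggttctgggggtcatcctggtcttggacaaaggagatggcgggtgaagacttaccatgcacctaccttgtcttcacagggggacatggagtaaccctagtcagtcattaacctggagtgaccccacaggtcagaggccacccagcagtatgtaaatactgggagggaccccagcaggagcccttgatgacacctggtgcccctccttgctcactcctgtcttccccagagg
Gdf15, downstream start (chr8:70632046-70632345): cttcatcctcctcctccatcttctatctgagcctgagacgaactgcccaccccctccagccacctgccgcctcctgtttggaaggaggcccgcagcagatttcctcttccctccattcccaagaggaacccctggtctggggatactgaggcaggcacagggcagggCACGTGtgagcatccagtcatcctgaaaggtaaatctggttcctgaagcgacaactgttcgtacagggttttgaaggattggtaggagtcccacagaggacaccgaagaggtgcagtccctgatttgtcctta
Fgf21 (chr7:45615441-45615740): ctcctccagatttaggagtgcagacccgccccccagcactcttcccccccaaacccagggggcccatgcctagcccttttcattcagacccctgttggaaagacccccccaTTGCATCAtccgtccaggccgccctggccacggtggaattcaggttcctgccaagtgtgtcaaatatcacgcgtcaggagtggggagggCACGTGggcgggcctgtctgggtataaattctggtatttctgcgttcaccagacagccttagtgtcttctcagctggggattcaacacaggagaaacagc

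The motifs searched were TGATGNAA, a core of the composite element read by C/EBP and ATF proteins, TGACGTCA, the cyclic AMP response element, and ACGTG, the core of the hypoxia response element. The first was present in the Fgf21 window, at bases -139 to -132, and in none of the other 10 windows found for 9 of the 10 genes. Of all 32851 windows in the table, 3.97% held it. TGACGTCA, held by 1.79% of all windows, was in none of them. ACGTG, held by 19.6% of all windows, was in windows of Gdf15, Fgf21, Bmp8b, Nrg4 and Vegfa. In the downstream Gdf15 window and in the Fgf21 window its matches on the 2 strands overlap and together read CACGTG. No window was printed for Angptl4. A match describes the letters only, and no binding was measured.

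Total estimated counts ranged from 13607283 to 23114534 per mouse, which gives the precision of each value. The mitochondrial genome took between 23.3% and 30.5% of the counts in WT and between 4.44% and 9.02% in OPA1 BKO mice, so levels are given as CPM, counts scaled by library size, after TMM scaling, which sets the bulk of the genes equal between mice. Opa1 itself, on which the labels were checked, had a mean level of 184 CPM in the 8 WT mice (SD 18.3) and of 26.2 CPM in the 8 OPA1 BKO mice (SD 7.32), without overlap of the genotypes. The brown fat marker Ucp1 was between 3187 and 6815 CPM in WT and between 2011 and 5373 CPM in OPA1 BKO mice. Of 7 brown adipocyte markers, Elovl3 and Pparg were higher and Cidea and Cox8b lower at an adjusted p under 0.05 in edgeR. Ucp1, Dio2 and Ppargc1a did not pass. No batch is named in the sources used here.

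In OPA1 BKO against WT mice, 5 of the 10 secreted factors were higher and 2 were lower at an adjusted p under 0.05 in edgeR, with sex as a covariate. Gdf15, Fgf21, Bmp8b, Angptl6 and Vegfa were higher, Adipoq and Cfd were lower, and Angptl4, Nrg4 and Lep did not pass the test. Among all genes tested, 20.8% were higher and 20.2% were lower, so a call is common in this comparison. The sizes were less common, except that of Vegfa. By log2 fold change, Gdf15 ranked 5, Fgf21 16, Bmp8b 52, Angptl6 103 and Vegfa 2517 among the 3255 higher genes, and Adipoq ranked 156 and Cfd 208 among the 3157 lower genes. All 8 OPA1 BKO mice were above all 8 WT mice for Gdf15, Fgf21 and Angptl6 and below them for Adipoq. Such separation was found upward in 5.07% and downward in 4.89% of all genes tested.

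**Figure D1:**
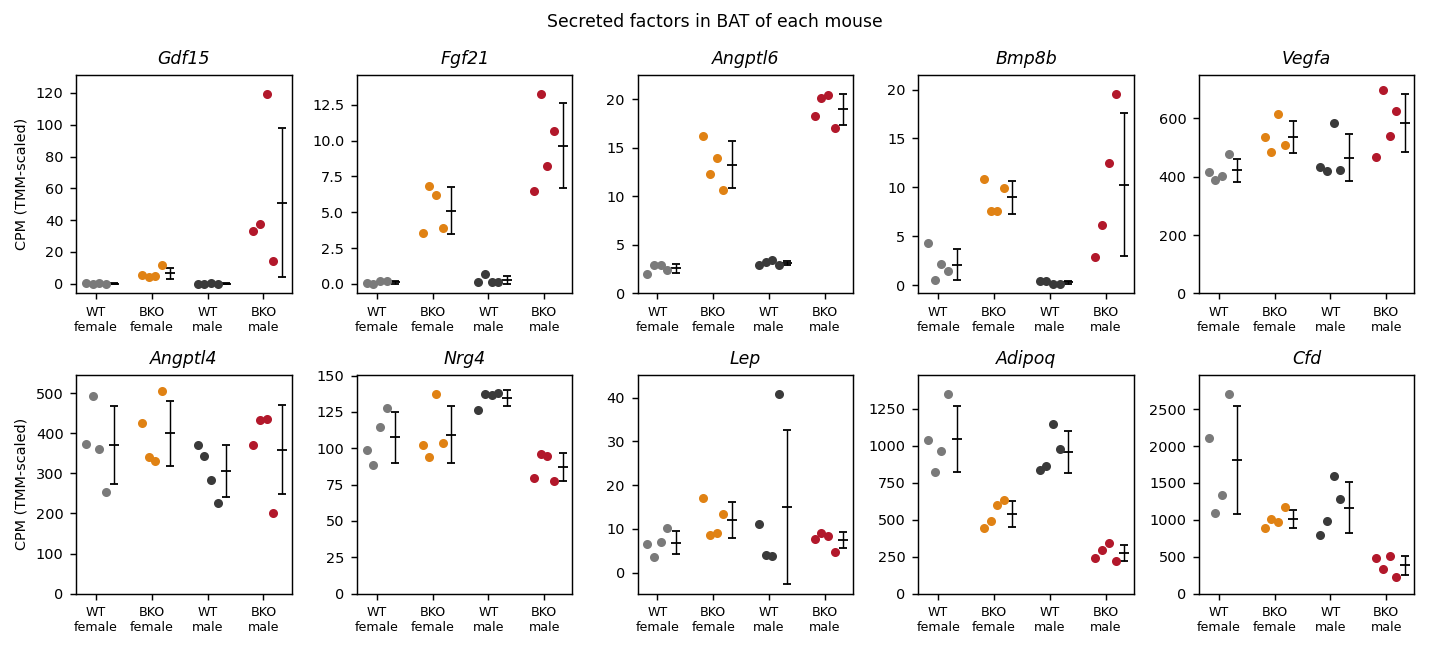
CPM of each secreted factor (y axis, TMM-scaled, own scale per panel) in each mouse (points), with the mean and SD of the 4 mice of a group at the right of the points. Gdf15, Fgf21 and Angptl6 lie above every WT mouse in all OPA1 BKO mice, Adipoq lies below, and over both sexes the genotypes overlap for Angptl4, Nrg4, Lep, Vegfa, Bmp8b and Cfd.

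Gdf15 was close to absent in WT mice. The WT females 1, 5, 9 and 13 had 0.284, 0, 0.250 and 0.0990 CPM, and the WT males 3, 7, 11 and 15 had 0, 0, 0.458 and 0.138 CPM. These levels rest on 19 estimated counts over all 8 WT mice, 3 of which had none, and a count of 0 allows up to 3 counts in a library. The OPA1 BKO females 2, 6, 10 and 14 had 5.42, 4.19, 4.98 and 11.9 CPM, and the OPA1 BKO males 4, 8, 12 and 16 had 33.1, 37.4, 119 and 14.5 CPM. Every OPA1 BKO mouse was thus above every WT mouse, and every OPA1 BKO male was above every OPA1 BKO female. The log2 fold change was 7.16 ± 0.68 (SE), with an adjusted p of 8.69e-07 in edgeR. Since the WT counts are few, this value depends on the prior count of the fit and was 5.62 with a prior count of 5.

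Fgf21 was likewise near the floor in WT mice, with 24 estimated counts over the 8 mice. Its levels were 0.0568, 0, 0.187 and 0.198 CPM in the WT females and 0.153, 0.718, 0.153 and 0.138 CPM in the WT males. The OPA1 BKO females had 3.54, 6.80, 6.21 and 3.88 CPM, and the OPA1 BKO males had 6.51, 13.2, 8.21 and 10.6 CPM. The sexes overlapped in OPA1 BKO mice, and the genotypes did not. Fgf21 rose by 5.18 ± 0.36 (SE) on the log2 scale (adjusted p = 2.84e-08 in edgeR), and by 3.99 with a prior count of 5.

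Angptl6, an angiopoietin-like factor that is made mainly in liver and raises energy expenditure, had low and even levels in WT mice, from 2.04 to 3.43 CPM with a median of 2.94. The OPA1 BKO females had 16.2, 12.3, 14.01 and 10.6 CPM and the OPA1 BKO males 18.3, 20.1, 20.4 and 17.03 CPM. Between genotypes it rose by 2.48 ± 0.11 (SE) on the log2 scale, or 5.57-fold (adjusted p = 1.59e-10 in edgeR). The coefficient of variation was 18.04% over the OPA1 BKO females and 8.42% over the males, against 32.1% and 30.4% for Fgf21 and 53.8% and 91.1% for Gdf15. Without male 12 the last value was 42.8%. Angptl6 overlaps A230050P20Rik in the annotation, and no source used here says whether the quantification used the strand.

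Because Fgf21 and Angptl6 are liver genes, RNA of hepatocytes was measured. The summed level of the 4 hepatocyte markers ranged from 0.428 to 41.2 CPM in WT and from 0.310 to 45.6 CPM in OPA1 BKO mice, and none of the 4 passed the test between genotypes. The sum was over 10 CPM in 4 mice, OPA1 BKO females 2 and 14, WT female 13 and WT male 3. The log2 fold change without these 4 mice was 5.29 for Fgf21, 2.46 for Angptl6 and 6.84 for Gdf15. Leaving these mice out was a choice made after seeing the data. Of the 10 genes, 7 were again called, where 2672 of all 16163 genes then tested were higher and 2589 were lower.

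Bmp8b encodes a BMP ligand that makes brown fat more responsive to adrenergic signals. The WT females had 4.26, 0.551, 2.12 and 1.48 CPM, and the WT males had 0.458, 0.431, 0.153 and 0.138 CPM. Among OPA1 BKO mice, the females had 10.8, 7.54, 7.55 and 9.97 CPM and the males 2.89, 6.17, 12.5 and 19.5 CPM. Within each sex all OPA1 BKO mice were above all WT mice, but WT female 1 was above OPA1 BKO male 4. Its log2 fold change was 3.22 ± 0.55 (SE), with an adjusted p of 0.000245 in edgeR. Of the 31-base words of Bmp8b transcripts, 7.03% also occur in Bmp8a, which stayed under 0.2 CPM in every mouse, and Bmp8b overlaps Oxct2b on the same strand.

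Vegfa, the main growth factor for blood vessels, was already at 390.0 to 585 CPM in WT mice, with a median of 421, and was at 469 to 699 CPM in OPA1 BKO mice, with a median of 539. The genotypes overlapped over both sexes and in males, while all 4 OPA1 BKO females were above all 4 WT females. The log2 fold change was 0.34 ± 0.09 (SE), or 1.26-fold, with an adjusted p of 0.00945 in edgeR. In females or males alone Vegfa did not pass in edgeR, with adjusted p-values of 0.0929 and 0.0749. DESeq2 gave 0.0515 and 0.0478, which passed in males only.

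Adiponectin and adipsin went the other way. For Adipoq the WT females had 1036, 821, 966 and 1351 CPM and the WT males had 836, 863, 1145 and 977 CPM. The OPA1 BKO females had 443, 489, 599.8 and 629.6 CPM, and the OPA1 BKO males had 238, 293, 340.0 and 219 CPM. There was no overlap between genotypes, nor between the sexes of OPA1 BKO mice. The log2 fold change was -1.38 ± 0.16 (SE), with an adjusted p of 8.67e-06 in edgeR.

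Cfd, the protease that starts the alternative complement pathway, varied more. The WT females had 2116, 1098, 1340.2 and 2700.2 CPM and the WT males 799.7, 989, 1589 and 1281 CPM. In OPA1 BKO mice the females had 888, 1014, 969.9 and 1179 CPM, which lay within the range of the WT mice of both sexes. The males had 477, 328, 507 and 229 CPM, which lay below that range. Against the WT females alone, 3 of the 4 OPA1 BKO females were below the lowest. Over both sexes the log2 fold change was -1.22 ± 0.23 (SE), with an adjusted p of 0.000463 in edgeR. In females it was -0.84 ± 0.29 (SE), with an adjusted p of 0.0591 in edgeR and of 0.0186 in DESeq2.

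These 2 decreases depend in size on the scaling. When all counts are divided by the library total, or when TPM is used, the median gene is itself higher in OPA1 BKO mice, by 0.57 with library size alone and by 0.87 with limma on log2(TPM + 0.5). On the latter scale the log2 fold change of Adipoq was -0.42, which still passed, and that of Cfd was -0.23, which did not, with an adjusted p of 0.334. Relative to the median gene the same values were -1.29 and -1.09. Adipocyte markers were lower in part: Fabp4, Cidec and Pnpla2 were lower and Plin1, Lipe and Cd36 did not pass, with a summed level of 13261 to 17838 CPM in WT and 9274 to 12312 CPM in OPA1 BKO mice. In bulk tissue, fewer cells of a type and less RNA per cell cannot be told apart.

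Angptl4, Nrg4 and Lep did not pass the test. Angptl4, a secreted inhibitor of lipoprotein lipase, ranged from 226 to 492 CPM in WT and from 200.2 to 504 CPM in OPA1 BKO mice, which is 0.17 ± 0.17 on the log2 scale (SE; adjusted p = 0.438 in edgeR). Nrg4, a brown fat ligand of ErbB receptors, ranged from 88.5 to 138 CPM in WT and from 77.5 to 138 CPM in OPA1 BKO mice, a log2 difference of -0.30 ± 0.12 (SE; adjusted p = 0.0570 in edgeR). Lep ranged from 3.67 to 40.9 CPM in WT and from 4.77 to 17.1 CPM in OPA1 BKO mice, a log2 difference of -0.11 ± 0.47 (SE; adjusted p = 0.876 in edgeR). Nrg4 passed when WT female 1, WT female 5 or OPA1 BKO female 10 was left out, with log2 differences of -0.35, -0.38 and -0.38 and adjusted p-values of 0.0358, 0.0172 and 0.00819 in edgeR. The highest Lep level was that of WT male 15, while the other WT mice lay between 3.67 and 11.2 CPM. Without that mouse the log2 fold change of Lep was 0.54, with an adjusted p of 0.141.

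**Figure D2:**
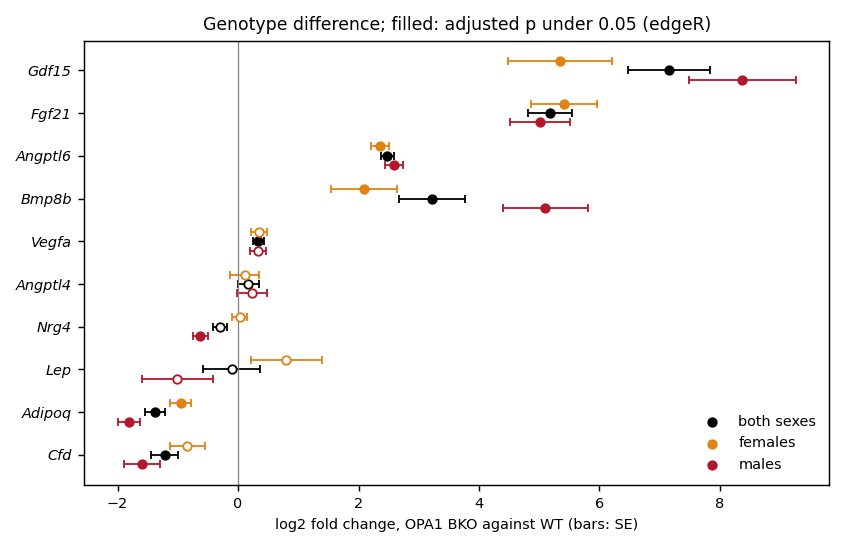
Log2 fold change of OPA1 BKO against WT (x axis, bars are SE) of the 10 secreted factors in both sexes together, in females and in males; filled points have an adjusted p under 0.05 in edgeR. Gdf15 is at 7.16, 5.35 and 8.38 in both sexes, females and males, and Adipoq is at -1.38, -0.95 and -1.81.

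The study used both sexes, so the genotype was also compared within each. In females 5 genes passed: Gdf15, Fgf21, Angptl6 and Bmp8b were higher and Adipoq was lower, against 8.96% of all genes higher and 9.03% lower. In males 7 genes passed: the same 4 were higher, and Nrg4, Adipoq and Cfd were lower, against 17.9% of all genes higher and 16.9% lower. On the log2 scale, Nrg4 differed by 0.03 ± 0.13 (SE) in females and by -0.63 ± 0.13 (SE; adjusted p = 0.00170 in edgeR) in males. In males its 4 WT mice were between 126 and 138 CPM and its 4 OPA1 BKO mice between 77.5 and 96.0 CPM. Bmp8b had a log2 fold change of 2.09 ± 0.55 (SE) in females and of 5.10 ± 0.71 (SE) in males.

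A difference between these sex-specific effects needs its own test. For the interaction of genotype and sex, edgeR called 0 of the 10 genes, against 0.115% of all genes. The unadjusted p was under 0.05 for 4 of the 10, a threshold at which the share of all genes was not counted. These were Nrg4, Adipoq, Bmp8b and Lep, with adjusted p-values of 0.138, 0.146, 0.163 and 0.366 in edgeR and log2 differences between the effects in males and females of -0.65, -0.86, 3.01 and -1.81. DESeq2 called 3 of them, Bmp8b, Nrg4 and Adipoq, with adjusted p-values of 0.0151, 0.0290 and 0.0269, and called 349 genes in all where edgeR called 18. For these 3 genes the call depended on the tool.

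Between the sexes of OPA1 BKO mice, Gdf15 and Angptl6 were higher in males and Adipoq and Cfd were lower in males, against 2.57% of all genes higher and 1.28% lower. In all 4 the males and females did not overlap, which was so for 13.4% of all genes tested in either direction. The log2 difference was 2.94 ± 0.57 (SE; adjusted p = 0.0127) for Gdf15, -0.99 ± 0.18 (SE; adjusted p = 0.00864) for Adipoq and -1.40 ± 0.30 (SE; adjusted p = 0.0193) for Cfd in edgeR. For Angptl6 it was 0.51 ± 0.14 (SE; adjusted p = 0.0493 in edgeR), which lost the call in most alternatives. Without OPA1 BKO male 12, the mouse with the most Gdf15, the difference of Gdf15 was 2.09 with an adjusted p of 0.0527, and without male 8 that of Cfd was -1.33 with an adjusted p of 0.0502. In WT mice edgeR called 0 of the 10 genes between the sexes, against 0.230% of all genes. The unadjusted p in edgeR was under 0.05 for 3 of them, Bmp8b, Nrg4 and Cfd, where the share of all genes was likewise not counted. DESeq2 called 0, giving no adjusted p for Bmp8b and Fgf21. Its unadjusted p for Bmp8b was 7.94e-06, with a log2 difference of -2.84. Bmp8b was lower in the 4 WT males than in any WT female, with a log2 difference of -2.81 ± 0.73 (SE; adjusted p = 0.0954 in edgeR), and it passed without WT female 5, with -3.11 and an adjusted p of 0.0411.

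Gdf15 has 2 annotated transcripts, whose starts are those of the windows printed above. Gdf15-202 has 3 exons and begins at the upstream start, and Gdf15-201 has 2 exons and begins at the downstream start, within the gene at chr8:70629393-70632456. Gdf15 was too low in WT mice for a comparison of shares between genotypes, so the shares are described in OPA1 BKO mice only, a choice made after seeing them. In the females 2, 6, 10 and 14, Gdf15-201 held 14.8%, 17.6%, 0% and 2.71% of the TPM of the gene, from 16.7, 16.6, 0 and 8.40 estimated counts. In the males 4, 8, 12 and 16 it held 22.5%, 32.3%, 28.9% and 27.8%, from 159, 358, 621 and 118 estimated counts. All 4 males were above all 4 females. The exact permutation p for this comparison, which was chosen after seeing the shares, was 0.0286, the smallest that 4 against 4 mice can give. TPM divides by length, and Kallisto splits reads that both transcripts could give by estimation, so a share from under 20 counts is imprecise.

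**Figure D3:**
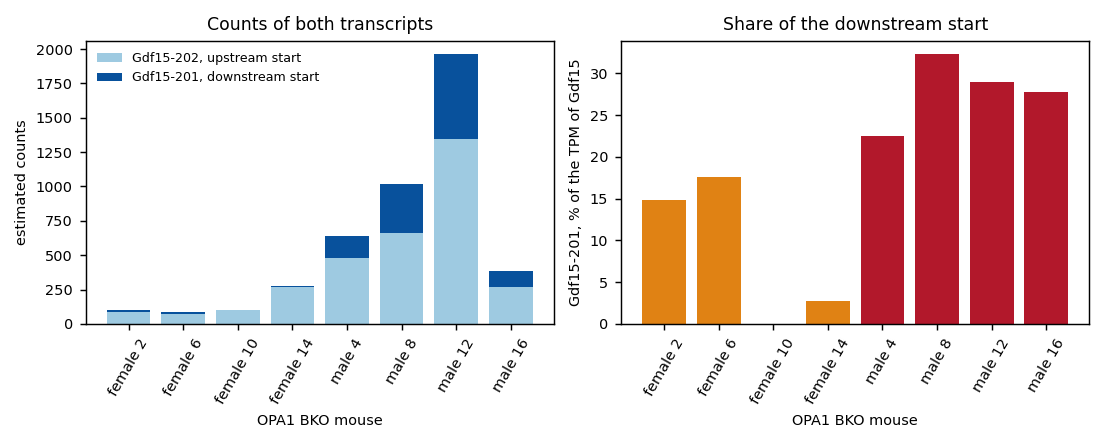
Left, estimated counts (y axis) of the Gdf15 transcripts in each OPA1 BKO mouse (x axis), stacked; right, the share of Gdf15-201 in the TPM of the gene, in percent, with females in orange and males in red. The share is between 0% and 17.6% in the females and between 22.5% and 32.3% in the males.

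Shares of transcripts were tested between genotypes for the 4 genes with at least 1 TPM in every mouse and at least 2 transcripts holding 10% or more of the gene in either genotype. These were Angptl4, Nrg4, Vegfa and Cfd, with 15 transcripts, of which 6 differed at an adjusted p under 0.05 by a two-sided exact permutation test of 8 against 8 mice. Vegfa-206, annotated as a retained intron, fell from 23.1% ± 2.73 (SD, n = 8) of the TPM in the WT to 18.3% ± 0.790 (SD, n = 8) in the OPA1 BKO mice. Vegfa-202, a protein-coding transcript with the most upstream start, rose from 16.2% ± 2.78 (SD, n = 8) to 21.3% ± 1.36 (SD, n = 8), and Vegfa-201, also protein-coding with a start further downstream, fell from 15.8% ± 3.39 (SD, n = 8) to 11.48% ± 1.47 (SD, n = 8). The adjusted p by the exact permutation test was 0.00233 for Vegfa-206 and Vegfa-202 and 0.0103 for Vegfa-201. The shift lay among transcripts of a gene whose total moved only 1.26-fold.

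For Nrg4, Nrg4-209 rose from 29.1% ± 4.75 (SD, n = 8) to 41.0% ± 4.60 (SD, n = 8) and Nrg4-210 fell from 30.7% ± 4.34 (SD, n = 8) to 21.02% ± 5.31 (SD, n = 8), with adjusted p-values of 0.00311 and 0.00758 by the exact permutation test. Both are annotated as processed transcripts without a coding sequence. The protein-coding transcript among the tested ones of Nrg4 was at 16.6% ± 2.98 (SD, n = 8) and 14.6% ± 3.77 (SD, n = 8), with an adjusted p of 0.282 by the exact permutation test. Angptl4-201, the coding transcript, rose from 14.5% ± 1.67 (SD, n = 8) to 16.9% ± 1.59 (SD, n = 8), with an adjusted p of 0.0276 by the exact permutation test. Most of the Angptl4 TPM, with 72.2% ± 5.02 (SD, n = 8) for the WT mice and 73.0% ± 1.73 (SD, n = 8) for the OPA1 BKO mice, was assigned to Angptl4-202, which is annotated as a target of nonsense-mediated decay. The Cfd transcripts did not pass. Within 1 sex, 4 against 4 mice cannot give an exact p under 0.0286, and no transcript passed after adjustment.

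**Figure D4:**
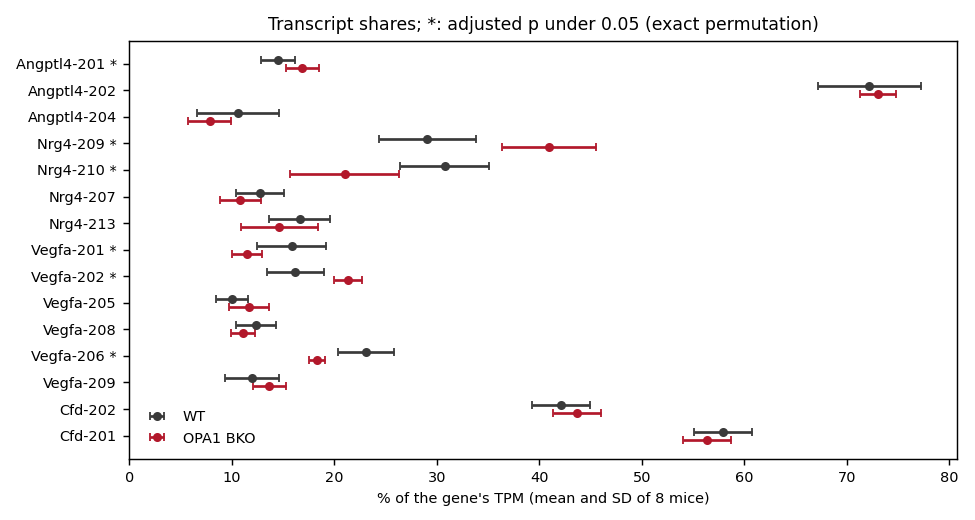
Share of each transcript in the TPM of its gene (x axis, percent; mean and SD of 8 mice) in WT and OPA1 BKO mice for the 15 transcripts tested; an asterisk marks an adjusted p under 0.05 by the exact permutation test. Nrg4-209 rises by 11.9 percentage points and Nrg4-210 falls by 9.72.

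Levels can be compared between genes only per transcript length, as TPM. The order is read within a genotype, since on log2(TPM + 0.5) the median gene was itself higher in OPA1 BKO mice by 0.87. In WT mice the order by median was Cfd (1509 TPM), Adipoq (734), Vegfa (270.1), Angptl4 (174), Nrg4 (82.1), Lep (1.95), Angptl6 (1.73), Bmp8b (0.2004), Fgf21 (0.156) and Gdf15 (0.0833). Neighbours did not overlap over the 8 mice from Adipoq down to Lep, and Cfd and Adipoq overlapped in range, although Cfd was above Adipoq in 8 of 8 mice. From Lep down to Gdf15 each gene overlapped with the next. In OPA1 BKO mice the order was Cfd (1565 TPM), Vegfa (631), Adipoq (561), Angptl4 (367), Nrg4 (113), Angptl6 (19.7), Gdf15 (17.1), Fgf21 (13.99), Bmp8b (5.06) and Lep (4.58). Only the steps from Angptl4 to Nrg4 and from Nrg4 to Angptl6 were free of overlap. Gdf15 and Fgf21 thus stayed below Nrg4 in median, and 1 mouse, OPA1 BKO male 12, reached 143 TPM of Gdf15.

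Ratios within a mouse do not depend on the scaling between mice. The TPM of Vegfa over that of Adipoq was between 0.294 and 0.442 in the 8 WT mice, between 0.650 and 1.02 in OPA1 BKO females and between 1.27 and 2.34 in OPA1 BKO males, so the 3 ranges did not overlap. The ratio of Cfd to Adipoq, in contrast, was between 2.46 and 3.19 in OPA1 BKO females and between 2.05 and 3.13 in WT females. In males it was between 1.60 and 3.07 in OPA1 BKO and between 1.46 and 2.11 in WT mice. Within each sex the 2 ranges overlapped. The ratio of Gdf15 to Fgf21 was between 0.387 and 1.99 in OPA1 BKO females and between 0.855 and 9.07 in OPA1 BKO males.

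How Gdf15 and Fgf21 varied with the other factors was examined over the 8 OPA1 BKO mice on log2 CPM, after subtracting the mean of each sex, since Gdf15, Adipoq and Cfd separate the sexes. Of 17 pairs, 0 passed after adjustment over the pairs, and 2 had an unadjusted p under 0.05 by the exact permutation test within sex. Gdf15 and Angptl4 had Pearson's r = 0.83 (exact permutation p = 0.0417, adjusted p = 0.354) and Spearman's rho = 0.95 (exact permutation p = 0.00347, adjusted p = 0.0590). Gdf15 and Adipoq had Pearson's r = 0.81 (exact permutation p = 0.0243, adjusted p = 0.354) and Spearman's rho = 0.71 (exact permutation p = 0.0903, adjusted p = 0.512). Without the 2 mice farthest from the median of Gdf15, male 12 and female 6, r was 0.92 and 0.65. Gdf15 and Cfd had r = 0.80 (exact permutation p = 0.0660, adjusted p = 0.374) and rho = 0.55 (exact permutation p = 0.250, adjusted p = 0.708), and r was 0.77 without those 2 mice. Without centring by sex, the sign of r turned for Gdf15 with Fgf21, Nrg4, Vegfa, Adipoq, Lep and Cfd. It also turned for Fgf21 with Angptl6, Nrg4 and Adipoq. Uncentred, 3 pairs had an unadjusted p under 0.05 by the exact permutation test, with 0 after adjustment.

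Gdf15 and Fgf21, the hormones that rose most, had no relation that passed the test within sex. Pearson's r was -0.39 (exact permutation p = 0.401, adjusted p = 0.694) and Spearman's rho was -0.24 (exact permutation p = 0.642, adjusted p = 0.910) over the 8 OPA1 BKO mice. It was -0.25 without male 12 and female 6, and between -0.52 and -0.28 when 1 mouse was left out at a time. The mouse with the most Gdf15 was male 12, and the mouse with the most Fgf21 was male 8. Among the pairs of Fgf21, centred by sex over all 8 mice, r was farthest from 0 for Vegfa, with r = 0.63 (exact permutation p = 0.132, adjusted p = 0.536) and rho = 0.55 (exact permutation p = 0.233, adjusted p = 0.708), and r was 0.56 without male 8 and female 2, where Lep (-0.89), Angptl4 (-0.80) and Cfd (-0.68) were farther from 0. The smallest p that the 576 permutations within sex can give is 0.00174.

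**Figure D5:**
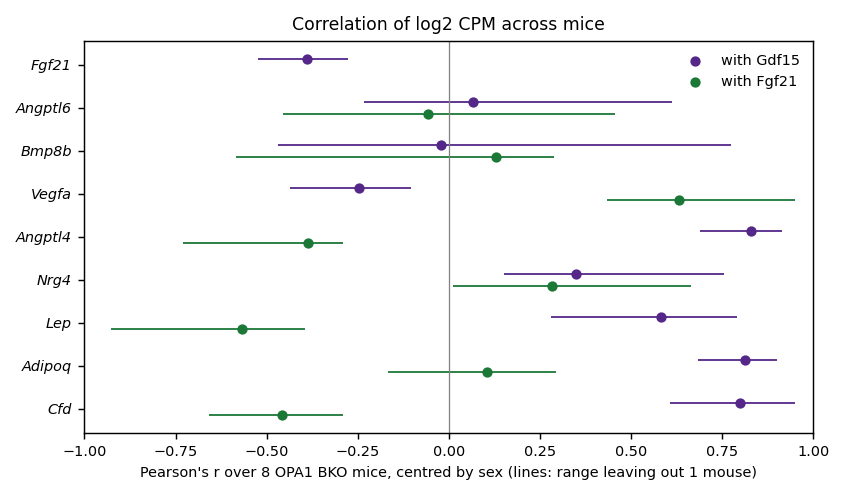
Pearson's r (x axis) of log2 CPM of Gdf15 and of Fgf21 with each other secreted factor over the 8 OPA1 BKO mice, centred by sex; lines give the range of r when 1 mouse is left out at a time. No pair passed after adjustment; r with Gdf15 is 0.83 for Angptl4, 0.81 for Adipoq and -0.39 for Fgf21.

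The search for genes with a like pattern covered the 13567 that averaged 1 CPM or more in OPA1 BKO mice. Those most like Gdf15 over the 8 mice, centred by sex, were Cpxm1 (r = 0.99), Sp140 (0.99), Nup85 (0.98), Slc16a11 (0.98) and Pyroxd2 (0.98). Those most like Fgf21 were Srsf11 (r = 0.99), Eif3a (0.99), Atp6v1h (0.98), Cpm (0.98) and Ptpn12 (0.98). The lists share no gene. These are descriptions: the highest values among so many genes over 8 mice, which share library and depth.

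The receptors and partners of the factors, and other secreted factors, made 8 lists with 79 genes, of which 65 were tested. Of these, 12 were higher and 17 were lower, or 18.5% and 26.2%, which is near the 20.8% and 20.2% of all genes. Of the receptors of GDF15 and FGF21 and the protease Fap, which cleaves FGF21, 1 of 6 tested genes passed: Klb rose with a log2 fold change of 0.46 ± 0.10 (SE; adjusted p = 0.00225 in edgeR). The receptor of GDF15 itself, Gfral, had no counts in any mouse. Of the ligands and receptors around NRG4, Nrg2 (1.85 ± 0.30) and Erbb4 (0.99 ± 0.24) rose in log2 fold change and Erbb3 was not called. None of the 6 tested BMP receptors passed, with a median log2 fold change of 0.13.

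In the VEGF family the growth factors Vegfb (-0.77 ± 0.08, SE) and Pgf (-1.16 ± 0.28) fell in log2 fold change while Vegfa rose, the receptors Flt4 (-0.43 ± 0.11) and Nrp1 (-0.30 ± 0.11) fell, and the co-receptor Nrp2 (1.02 ± 0.13) rose. Of endothelial markers, 4 of 7 were lower, and their summed level was 788 to 1006 CPM in WT and 600.5 to 800.1 CPM in OPA1 BKO mice. In the lipoprotein lipase list 2 of 7 tested genes were lower, Angptl2 and Gpihbp1, the protein that carries the lipase on capillaries, and Lpl itself was at 0.13 (log2; adjusted p = 0.418 in edgeR). Around adipsin, C3, the central complement protein, fell with a log2 fold change of -1.09 ± 0.20 (SE), and the receptor C3ar1 (1.45 ± 0.26) and properdin, Cfp (0.72 ± 0.17), rose. Of the adiponectin and leptin receptors, Adipor1 rose by 0.20 and Cdh13, also called T-cadherin, fell by 0.48, both on the log2 scale, and Lepr did not pass the filter on low counts.

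Among 25 tested other secreted factors, 5 were higher and 9 were lower. The highest rise was in Lcn2, the lipocalin that binds siderophores, from 0.122 to 0.839 CPM in WT to 1.33 to 9.10 CPM in OPA1 BKO mice (log2 fold change 2.67 ± 0.34, SE). Epdr1 (1.73 ± 0.48), Metrnl (1.01 ± 0.17), Fgf1 (1.01 ± 0.21) and Pltp (0.78 ± 0.12) rose as well in log2 fold change. The retinol carrier Rbp4 (-1.23 ± 0.14), the peptide Apln (-1.25 ± 0.29) and C1qtnf12, a relative of adiponectin (-0.98 ± 0.07), fell. Il6, Itln1 and Serpina12 stayed under 0.2 CPM in every mouse.

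Markers of other cells moved with the genotype, and their part in the results was not tested. Of 8 macrophage markers, 7 were higher, with a summed level of 98.1 to 150.1 CPM in WT and 133 to 528 CPM in OPA1 BKO mice. The mouse with the highest sum was male 12, which also had the most Gdf15. Of 6 markers of fibroblasts and preadipocytes, 4 were higher, with sums of 163 to 268 and 192 to 395 CPM. The highest of these sums was also that of male 12, as was the highest adipocyte marker sum among OPA1 BKO mice, 12312 CPM. Of 5 lymphocyte markers, 2 were lower. Muscle markers ranged from 17.3 to 5658 CPM in WT and from 2.86 to 13567 CPM in OPA1 BKO mice in sum, with none called. Without the 3 mice over 5000 CPM (OPA1 BKO male 4 and female 6 and WT female 9), a choice made after seeing the data, 7 of the 10 factors were again called. Of all genes tested, 17.8% were then higher and 16.4% lower. Of the 4 markers of mammary epithelium none passed the filter on low counts, and Krt18, Csn3 and Epcam stayed under 0.2 CPM in every mouse.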

How the data were processed

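The members and gene lists were chosen with earlier results of these data known. The authors ran Kallisto 0.45.0 on reads of stranded poly(A) libraries and deposited, per mouse, an estimated count per transcript, not normalized, and a TPM, divided by length and scaled to a fixed total. Both deposited units were summed per gene through GENCODE M21 identifiers (mm10); 2024 of 135308 transcripts, with 0.483% to 0.730% of the counts, had no match and were left out. Counts were rounded, filtered (filterByExpr, minimum 10, minimum total 15) and scaled by TMM. The quasi-likelihood test of edgeR 4.0.16 (R 4.3.3) was run with sex as a covariate and a prior count of 0.125. Effects within a sex and the interaction came from a model with 1 mean per group. P-values were adjusted by Benjamini-Hochberg over the 15632 genes, with 0.05 as the threshold. Correlations, with mice permuted within sex, and transcript shares were tested by two-sided exact permutation. The SE is the fold change divided by the root of its F. Labels group the mice and name no pairs, and nothing says that a mouse gave more than 1 library. Intervals and floors of 3 counts cover counting error only, since PCR copies are not independent molecules. The fit was tested on simulated data. Genes named were the 10 factors, Opa1, list members where a sentence is about their list, and the 5 genes most like Gdf15 and Fgf21. Alternatives were DESeq2 1.42.0, RLE or library size in place of TMM, other filters, counts scaled from TPM, no term for sex, limma 3.58.1 on log2 TPM, another prior count, and leaving out each mouse.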

Additional observations from a re-analysis of the deposited data

Results flagged for a closer look

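Within the 40 groups of 4 mice, 4 values stood far from the other 3 mice of their group, and chance gives about 1 in 20 groups. OPA1 BKO female 14 had 11.9 CPM of Gdf15, where the other 3 females lay between 4.19 and 5.42 CPM. WT male 7 had 0.718 CPM of Fgf21, from 10 estimated counts, where the others lay between 0.138 and 0.153 CPM. WT male 3 had 126 CPM of Nrg4, below the 136 to 138 CPM of the others. WT male 11 had 585 CPM of Vegfa, above the 418 to 433 CPM of the others; without it the WT mice reached 478 CPM.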

How the results depend on the processing

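In OPA1 BKO against WT mice, Gdf15, Fgf21, Angptl6, Bmp8b, Vegfa and Adipoq kept their direction and their call under every alternative run, and 7 to 9 of the 10 factors were called. The calls of Nrg4, Lep, Angptl4 and Cfd changed with the scaling. With library size alone and with limma on log2(TPM + 0.5) and log2(TPM + 0.1), under which the median gene rose by 0.57, 0.87 and 0.93, the log2 fold change of Nrg4 turned to 0.25, 0.56 and 0.57 and that of Lep to 0.44, 1.01 and 1.18, and Angptl4 passed. With both limma settings Nrg4 and Lep passed as higher. Of all genes, 69.5% were then higher and 2.39% lower with library size alone, and 85.2% and 0.740% with limma on log2(TPM + 0.5), against 20.8% and 20.2% with TMM, so calls of higher factors there are near the background. Cfd was at -0.23 and lost its call with limma. Nrg4 passed, in its direction, with DESeq2 (-0.30) and with counts scaled from TPM (-0.37), and when WT female 1, WT female 5 or OPA1 BKO female 10 was left out. Relative to the median gene Nrg4 was at -0.31, -0.30 and -0.37. Lep also turned to 0.54 without WT male 15 and to 0.06 without OPA1 BKO male 16. With library size alone, where 69.5% of all genes were higher over both sexes, 8 factors were called in females in place of 5. The share of all genes in females alone was not counted under that setting. For the interaction DESeq2 called 3 in place of 0. Leaving out 1 mouse at a time gave 0 to 1 factors between WT males and females, and 2 to 4 between OPA1 BKO males and females, with 2 without male 8 or male 12. It gave 5 to 6 transcript shares. In females or males alone 0 transcript shares passed, where 4 against 4 mice cannot go below an exact p of 0.0286. No correlation passed under any alternative. Partner genes called numbered 29, with 24 to 41 over the alternatives, the highest with library size alone. No paired analysis was possible because the mice carry no shared numbers. Depth limits Gdf15 and Fgf21 in WT mice, at 19 and 24 estimated counts in all.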
